A study of Mus musculus with 29 samples.

Results

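The aortic arch of normal mice was compared between 6 and 22 weeks of age, a span that runs from the young to the adult animal. The 9 samples used, of 29 in the series, were taken by their labels: 5 Ercc1 +/+ mice of 6 weeks (samples 001, 009, 011, 019 and 024; 3 males and 2 females) and 4 Ercc1 +/+ mice of 22 weeks (samples 012, 018, 020 and 025; 3 males and 1 female). Sample 003, a further library of 22 weeks that the study also set aside, was left out. It held 400410 counts on genes. All 9 were wild-type (WT) F1 hybrids of C57BL6J and FVB parents, littermates of the DNA repair-deficient Ercc1Δ/− mice that the series was made to study, and were fed synthetic pellets ad libitum (AL), housed alone and kept on a shifted light-dark schedule. Each sample was bulk RNA of 1 aortic arch, so that fewer cells of a type and less RNA per cell cannot be told apart. Ercc1Δ/− mice of the same ages fed AL (9 samples) and WT mice of 22 weeks on dietary restriction (DR, 5 samples) are given only where their values stand beside those of the 9.

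The wall of the aorta owes its strength and recoil to collagen and elastic fibers laid down by smooth muscle cells and fibroblasts. Most of this matrix is made before and shortly after birth and while the body grows, and it is then turned over slowly, elastin hardly at all. Collagen chains are modified and folded in the endoplasmic reticulum, secreted, trimmed and cross-linked by lysyl oxidases, and every smooth muscle cell is wrapped in a basement membrane of type IV collagen, laminins, nidogens and perlecan. The comparison of the 2 ages asks which genes still change in the healthy vessel over this period.

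Deduplicated counts on genes ran from 955589 to 9227924 per sample at 6 weeks and from 3903589 to 9616382 at 22 weeks. Mean totals were 4058379.6 ± 3349849.8 (SD, n = 5) and 6486296 ± 2785209 (SD, n = 4), a difference within the spread of the samples (two-sided exact permutation test, p = 0.302, where the smallest possible p is 0.0159). The 2 shallowest libraries, 011 and 019, were both of 6 weeks. Mitochondrial genes took 4.31% ± 1.28 of the counts at 6 weeks and 3.08% ± 0.530 at 22 weeks (exact permutation test, p = 0.111). Xist and the Y chromosome genes matched the sex label in 9 of 9 samples. Ercc1 lay between 52.2 and 136 normalized counts in these 9 samples and between 31.2 and 69.8 in the 9 AL-fed Ercc1Δ/− samples. In CPM, the counts scaled to 1 library size, smooth muscle markers (8 genes) summed to 30290 to 37960 at 6 weeks and 32120 to 37480 at 22 weeks, endothelial markers (18 genes) to 1279 to 1440 and 1318 to 1773, and adventitial fibroblast markers (16 genes) to 8510 to 9471 and 7829 to 9317.

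A gene was called differentially expressed (DEG) where edgeR's quasi-likelihood test gave an adjusted p (Benjamini-Hochberg) no higher than 0.05 and the change was 1.2-fold or more. Among 12353 genes tested there were 29 DEGs (0.235% of those tested), of which 17 fell (0.138%) and 12 rose (0.0971%) from 6 to 22 weeks. Those that fell included Sparc, the fibrillar collagen genes Col3a1, Col5a2 and Col1a2, the basement membrane collagens Col4a5, Col4a2 and Col15a1, the cross-linking enzyme Lox and the collagen-degrading protease Ctsk. Those that rose included the interferon-inducible GTPase gene Gbp8, 3 genes of 1 stretch of the X chromosome (Gprasp1, Gprasp2 and Tceal6) and the bone sialoprotein gene Ibsp. The median change of the DEGs was -0.73 on the log2 scale for those that fell and 0.97 for those that rose, while the median of all tested genes was -0.00082. Normalized counts of the 2 ages did not overlap for 14 of the 17 genes that fell and for 12 of the 12 that rose, beside 475 of all tested genes (3.85%, made up of 2.1% lower and 1.74% higher). The DEGs were called on these same counts, so the lack of overlap, here and gene by gene below, describes them and adds no support to the calls. At an unadjusted p under 0.05 there were 1069 genes (8.65%), 557 of them lower (4.51%) and 512 higher (4.14%).

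**Figure D1:**
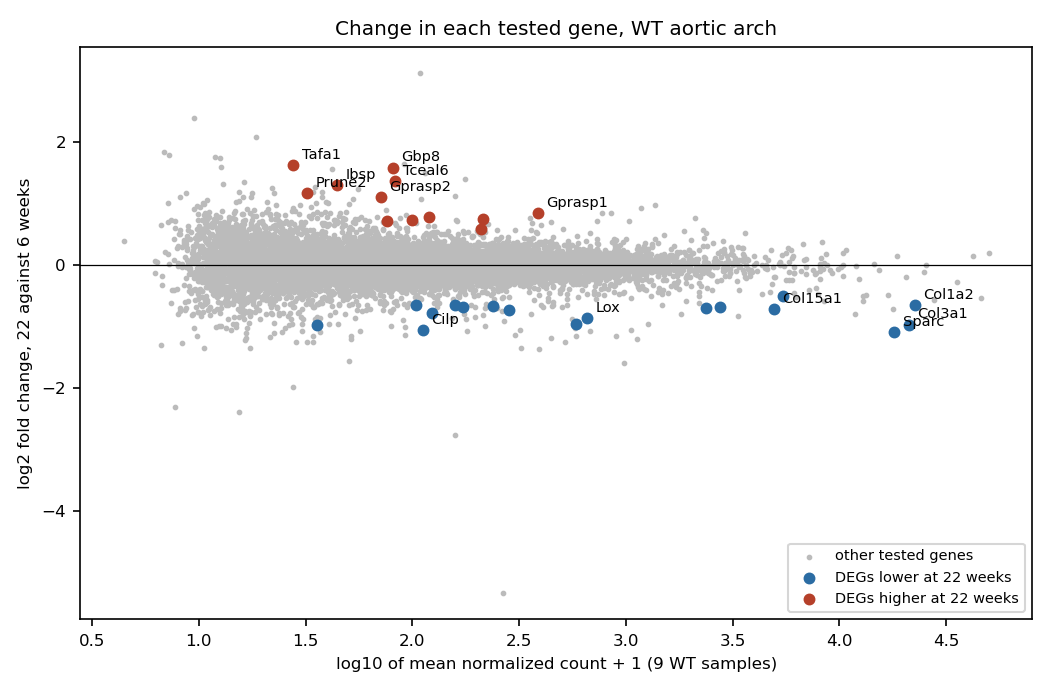
Each point is 1 of the 12353 tested genes, with the log10 of its mean normalized count plus 1 over the 9 WT samples on the x axis and its log2 fold change from 6 to 22 weeks on the y axis. DEGs that fell (blue, 17) include the abundant matrix genes Sparc, Col3a1 and Col1a2 at the right, while the 12 DEGs that rose (red) have lower counts.

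The number of DEGs depended on single libraries. Without sample 025, the deepest of 22 weeks, 8 DEGs were left (3 higher and 5 lower), 7 of them among the 29, and 6 further genes of the 29 then stood just past the threshold at an adjusted p of 0.051. Without sample 001 or 009, both of 6 weeks, there were 18 and 16 DEGs. Without sample 027, a 6-week Ercc1Δ/− library that enters the fit but neither WT group, there were 56. Leaving out 011 and 019 together, a choice made after their totals were seen, gave 21 DEGs, 17 of them among the 29. Of the 29 DEGs, 2 (Sparc and Col4a5) were called in each of the 31 alternative fits, 15 in at least 24, and 5 (Col4a2, Pex5l, Foxf1, Myoz2 and Vit) in fewer than 50% of them.

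Sparc had the smallest p of all genes. It encodes osteonectin, a secreted glycoprotein that binds collagen and is found in basement membranes, and lies at chr11:55285317-55314067 on the minus strand (GRCm39). In samples 001, 009, 011, 019 and 024 of 6 weeks it had 25013, 26133, 21932, 26625 and 18256 normalized counts, and in samples 012, 018, 020 and 025 of 22 weeks 12259.5, 11125, 11677 and 9534. The highest sample of 22 weeks was thus below the lowest of 6 weeks. The log2 fold change was -1.101 ± 0.12 (standard error, SE), equal to 2.14-fold lower, with an adjusted p of 7.58e-05 (edgeR). Without sample 025 the adjusted p was 9.26e-04.

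Col4a5, which encodes the α5 chain of type IV collagen (chrX:140258354-140472231, plus strand), had the next smallest p. Its normalized counts were 3003, 3073, 2491, 2929 and 2874 at 6 weeks and 1644, 1971, 1711 and 1711 at 22 weeks, samples in the same order here and in what follows. All 4 mice of 22 weeks were below all 5 of 6 weeks, and the log2 fold change was -0.71 ± 0.09 (edgeR, adjusted p = 9.50e-04). Col15a1 encodes type XV collagen, which sits at the outer face of basement membranes. It had 6798, 6584, 4464, 5569 and 6329 normalized counts at 6 weeks and 3265, 3660.3, 3933 and 3748 at 22 weeks, a log2 fold change of -0.73 ± 0.14 (adjusted p = 0.0167), again without overlap. Col4a2, the α2 chain of type IV collagen, fell by 0.52 ± 0.11 on the log2 scale (adjusted p = 0.0376). Its lowest 6-week library, 011 at 4877, and its highest 22-week library, 012 at 4884, were side by side. Col4a1, its partner chain and its head-to-head neighbour on chromosome 8, was picked after its values were seen. It was at 6661 to 9317 at 6 weeks and 5854 to 6656 at 22 weeks, a log2 fold change of -0.40 ± 0.10 that did not pass (adjusted p = 0.0930).

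Over the basement membrane list, 4 of 20 tested members were DEGs, all of them lower, beside 0.138% of all tested genes (Sparc, Col4a5, Col15a1 and Col4a2). The log2 fold change was below 0 for 19 of the 20, beside 6198 of all 12353 genes, and the median was -0.35. Groups did not overlap in the downward direction for 9 of the 20 (2.1% of all tested genes). None of the laminin genes was a DEG. Without 011 and 019 the 4 DEGs and a median of -0.34 were found again, with 20 of 20 members below 0, and without 025 the list had 2 DEGs.

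Of the fibrillar collagens, which form the load-bearing cables of the wall, 3 of 8 tested members were DEGs, all lower, beside 0.138% of all tested genes. Col3a1 encodes the chain of type III collagen, the most distensible of the group. It had 31728, 29620.5, 23154, 25300.5 and 25665 normalized counts at 6 weeks and 12684, 17643, 13792 and 11049 at 22 weeks. These did not overlap, and the log2 fold change was -0.97 ± 0.17 (edgeR, adjusted p = 0.0130). Col1a2, the α2 chain of type I collagen, had 32429, 28864, 22008, 27678 and 23397 at 6 weeks and 17116, 18748, 17875 and 15071 at 22 weeks, and fell by 0.65 ± 0.13 on the log2 scale (adjusted p = 0.0267). Col5a2 encodes a chain of type V collagen, which is built into type I fibrils and limits their width. It had 3283, 3774, 2519, 3305 and 3608 at 6 weeks and 2239, 2063, 2129.5 and 1908 at 22 weeks. Its log2 fold change was -0.68 ± 0.11 (adjusted p = 0.00387), and here too every 22-week sample was below every 6-week sample. Col3a1 and Col5a2 are neighbours on opposite strands of chromosome 1 (chr1:45350698-45395840 and chr1:45412554-45542442).

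The partner of Col1a2 in type I collagen, Col1a1, had a log2 fold change of -0.80 ± 0.18 that missed the threshold (adjusted p = 0.0733), although its range of 6710.0 to 10043 at 22 weeks lay below that of 10598 to 19848 at 6 weeks. Col5a1 was at -0.26 ± 0.13 (adjusted p = 0.587). Of the 8 fibrillar collagens 7 were below 0, and the list median was -0.56. With libraries left out singly, the list median ran from -0.71 to -0.43 and the number of DEGs from 1 (without sample 025) to 4, and without 011 and 019 there were 2 DEGs and a median of -0.72. Among 12 other collagens there was no DEG, 9 were below 0 and the median was -0.21. It was -0.38 without sample 018, and -0.30 with 1 DEG without 011 and 019. Col6a1, a chain of the microfibrillar type VI collagen, was at -0.47 ± 0.13 (adjusted p = 0.137) and Col12a1 at -0.74 ± 0.23 (adjusted p = 0.226).

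Windows of 250 bases upstream of the start of transcription are shown for 4 of the matrix genes that fell with no overlap and for 2 of the X-linked genes that rose, so that genes that moved together can be read side by side. They come from RefSeq on the older build GRCm38.p6, in which 12 of the 17 DEGs that fell and 8 of the 12 that rose had a window outside the regions not shown. They read 5′ to 3′ on the strand of the gene, and capitals mark, on either strand, a CCAAT box (letters CCAAT), a GC box (letters GGGCGG) or a TATA box (letters TATAAA).
Sparc (chr11:55420081-55420330, minus strand): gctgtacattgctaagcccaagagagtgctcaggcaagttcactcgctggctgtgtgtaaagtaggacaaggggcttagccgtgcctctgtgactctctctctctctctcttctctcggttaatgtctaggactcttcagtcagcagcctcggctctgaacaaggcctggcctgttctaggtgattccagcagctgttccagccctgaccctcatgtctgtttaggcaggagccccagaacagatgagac
Col4a5 (chrX:141475169-141475418, plus strand): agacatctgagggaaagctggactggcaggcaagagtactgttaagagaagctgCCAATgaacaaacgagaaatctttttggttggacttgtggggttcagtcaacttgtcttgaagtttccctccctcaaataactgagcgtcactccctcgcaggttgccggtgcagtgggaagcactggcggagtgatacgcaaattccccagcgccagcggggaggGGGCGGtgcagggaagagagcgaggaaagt
Col3a1 (chr1:45311288-45311537, plus strand): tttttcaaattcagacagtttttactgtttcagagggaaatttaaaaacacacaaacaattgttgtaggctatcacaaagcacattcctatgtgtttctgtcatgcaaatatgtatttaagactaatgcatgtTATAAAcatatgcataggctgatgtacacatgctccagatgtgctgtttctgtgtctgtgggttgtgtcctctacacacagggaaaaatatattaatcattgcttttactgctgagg
Col1a2 (chr6:4505368-4505617, plus strand): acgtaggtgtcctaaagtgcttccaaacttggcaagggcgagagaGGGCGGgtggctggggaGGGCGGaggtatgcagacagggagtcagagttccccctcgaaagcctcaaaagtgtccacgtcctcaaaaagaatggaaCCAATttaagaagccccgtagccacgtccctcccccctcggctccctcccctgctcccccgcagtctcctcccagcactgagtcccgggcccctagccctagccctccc
Gprasp1 (chrX:135742442-135742691, plus strand): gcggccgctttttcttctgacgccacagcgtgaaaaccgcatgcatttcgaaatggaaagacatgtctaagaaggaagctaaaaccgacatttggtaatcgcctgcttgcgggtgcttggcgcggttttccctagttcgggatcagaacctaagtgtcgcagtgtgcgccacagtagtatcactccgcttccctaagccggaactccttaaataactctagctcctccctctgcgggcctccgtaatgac
Gprasp2 (chrX:135838784-135839033, plus strand): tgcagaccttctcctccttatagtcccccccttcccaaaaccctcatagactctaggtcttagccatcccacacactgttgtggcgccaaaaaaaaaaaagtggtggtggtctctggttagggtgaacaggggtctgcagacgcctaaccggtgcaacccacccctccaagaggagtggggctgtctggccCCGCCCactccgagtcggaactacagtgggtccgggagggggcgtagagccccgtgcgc

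None of these 3 motifs was shared by the 6 windows. CCAAT was in 5 of the 12 windows of genes that fell and 3 of the 8 of genes that rose, beside 33.8% of all 32851 windows. GGGCGG was in 5 of 12 and 5 of 8, beside 32.7%, and TATAAA in 1 of 12 (Col3a1) and 1 of 8 (Ibsp), beside 12.4%. These are counts of letters in a window and no evidence of binding.

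Lox, the lysyl oxidase that starts the cross-links of collagen and elastin, was the DEG of its family. Of 5 tested members 1 was thus called lower, beside 0.138% of all tested genes. Lox had 720.5, 852, 1000.4, 899 and 680.1 normalized counts at 6 weeks and 611, 415, 329 and 432 at 22 weeks. Sample 012 was the highest of the older mice and was still below sample 024, the lowest of the younger ones. The log2 fold change was -0.87 ± 0.15 (edgeR, adjusted p = 0.00894), with an adjusted p of 0.0510 without sample 025. Loxl2, a relative that also acts on type IV collagen, had 227, 224, 249, 217 and 198 at 6 weeks and 141, 145, 172 and 172 at 22 weeks. It did not overlap either, but its log2 fold change of -0.50 ± 0.11 did not pass (adjusted p = 0.0568). The other 3 members ran from -0.11 to 0.04.

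Genes of the elastic fiber gave no DEG among 17 tested, and their median was 0.02, with 10 above and 7 below 0. The sign of that median rested on single libraries, since it was -0.12 without sample 018 and -0.03, with 6 above and 11 below 0, without 011 and 019. By unadjusted p, 5 were under 0.05, each with a value below 0, beside 4.51% of all genes. Elastin itself (Eln) had 21243, 27476, 13439, 23000.0 and 22423 normalized counts at 6 weeks and 15089, 13854, 11427 and 12747 at 22 weeks. Sample 011 of 6 weeks lay inside the range of the older mice, and the log2 fold change of -0.72 ± 0.30 had an adjusted p of 0.498. The microfibril genes Fbn1 and Mfap5 were at -0.38 ± 0.12 (adjusted p = 0.260) and -0.54 ± 0.12 (adjusted p = 0.0685). Ltbp2, a latent TGF-β binding protein of elastic microfibrils, was at -0.46 ± 0.10 (adjusted p = 0.0568) and Fbln1, fibulin-1, at -0.30 ± 0.14 (adjusted p = 0.563).

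Enzymes that fold and trim collagen gave no DEG among 26 tested members either (median -0.10, or -0.07 without sample 012, and 18 below 0). Those with the smallest p were Adamts2, the N-propeptidase of fibrillar procollagens (-0.47 ± 0.11, adjusted p = 0.0694), Pcolce2, an enhancer of C-propeptide cleavage (-0.42 ± 0.10, adjusted p = 0.0726), and Plod2, a lysyl hydroxylase of telopeptides (-0.41 ± 0.09, adjusted p = 0.0726). All 3 had non-overlapping groups, and they were the only 3 of the 26 members that did, beside 2.1% of all tested genes. Of the matrix metalloproteases and their inhibitors (16 tested, no DEG), Mmp2, gelatinase A, was at -0.51 ± 0.14 (adjusted p = 0.138). The list of matricellular proteins (19 tested, no DEG) did not hold Sparc, which was counted in the basement membrane list. In it Postn, periostin, had a log2 fold change of -0.39 ± 0.09 (adjusted p = 0.0685).

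Raw counts of Sparc were at least 5459 in each of the 9 libraries, those of Col3a1 at least 5763 and those of Col1a2 at least 5478. Ctsk encodes cathepsin K, a lysosomal protease that cuts triple-helical collagen. It had 295, 286, 269, 331 and 239.8 normalized counts at 6 weeks and 154, 199, 201 and 155 at 22 weeks without overlap, a log2 fold change of -0.67 ± 0.11 (edgeR, adjusted p = 0.00753). It was the DEG of the lysosome list (25 tested, median -0.02), beside 0.138% of all tested genes called lower.

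Cilp, which encodes a secreted protein first found in cartilage, had 116, 139, 133, 146 and 189.8 normalized counts at 6 weeks and 68.9, 73.7, 80.3 and 55.4 at 22 weeks, and fell by 1.06 ± 0.20 on the log2 scale (edgeR, adjusted p = 0.0225). Sample 024 was highest and sample 025 lowest, and the ages did not overlap. Ppic, cyclophilin C, a prolyl isomerase of the secretory pathway, was at 273 to 393 at 6 weeks and 188 to 237 at 22 weeks (-0.74 ± 0.11, adjusted p = 0.00195). Adm encodes adrenomedullin, a peptide that relaxes vessels. Its range was 125 to 191 at 6 weeks and 74.7 to 119.6 at 22 weeks (-0.79 ± 0.16, adjusted p = 0.0338).

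Among the remaining DEGs that fell, Pdp2 encodes a phosphatase that activates pyruvate dehydrogenase, and had 169 to 253 normalized counts at 6 weeks and 122 to 133 at 22 weeks (-0.68 ± 0.12, adjusted p = 0.00987). Lypd8l had 608 to 966 at 6 weeks and 344 to 431 at 22 weeks (-0.96 ± 0.16, adjusted p = 0.00987). Myoz2, calsarcin-1, which ties calcineurin to the Z-disc of striated muscle, was at 200.1, 192, 177, 183 and 183 at 6 weeks and at 118, 119, 119 and 122 at 22 weeks. The SDs were 9.19 and 1.45, the ages did not overlap, and the log2 fold change was -0.65 ± 0.14 (adjusted p = 0.0498). Kcna6, a voltage-gated potassium channel, and Pex5l, which binds pacemaker channels, fell by 0.98 ± 0.19 and 0.65 ± 0.14 (adjusted p = 0.0267 and 0.0376), and each had samples of the 2 ages that overlapped.

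**Figure D2:**
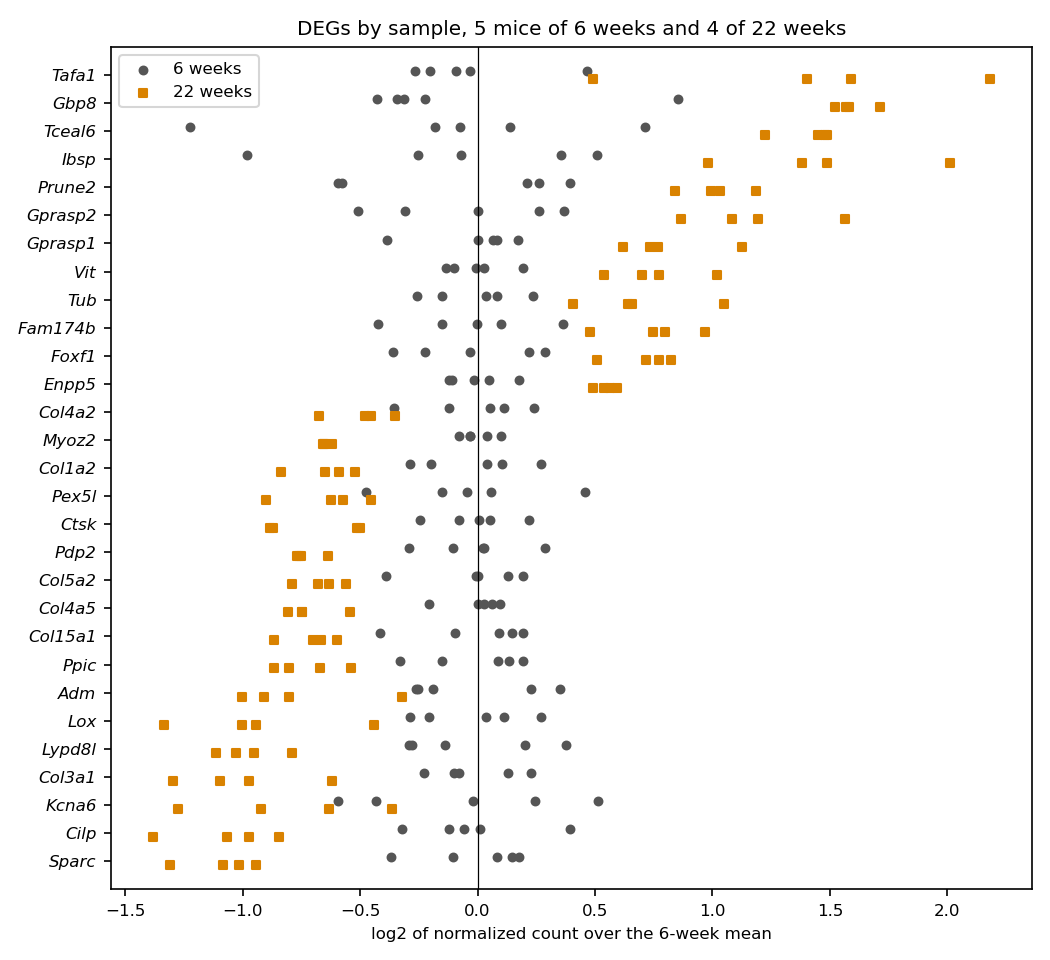
Normalized counts of the 29 DEGs are drawn per sample as the log2 of the value over the mean of the 5 mice of 6 weeks (x axis), 1 gene per line. Circles are the 5 mice of 6 weeks and squares the 4 mice of 22 weeks, and the groups overlap for Col4a2, Pex5l and Kcna6 only.

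Gbp8 had the smallest p of the genes that rose. It belongs to the guanylate-binding proteins, GTPases that interferon-γ induces. Its normalized counts were 34.0, 76.4, 36.2, 31.4 and 33.3 at 6 weeks and 125, 139, 126.5 and 121 at 22 weeks. Sample 009 was the highest of the young mice and was below all 4 older ones. The log2 fold change was 1.58 ± 0.22, equal to 2.99-fold higher (edgeR, adjusted p = 0.00117), and it was called in 29 of the 30 alternative fits that tested it. Its annotated span (chr5:105162016-105287452) overlaps those of Gbp9 and Gbp4 on the same strand, and these are close copies, so that its reads could have been split between them. Of 7 Gbp genes tested, a group looked at after values were seen, the other 6 were not DEGs and ran from 0.30 to 1.23.

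The X-linked genes Gprasp1, Gprasp2 and Tceal6 rose. Gprasp1 and Gprasp2 encode proteins that associate with G protein-coupled receptors, and Tceal6 a homologue of a transcription elongation factor. Gprasp1 had 325, 222, 289, 303 and 306 normalized counts at 6 weeks and 444, 492, 481 and 630.1 at 22 weeks, Gprasp2 53.6, 44.7, 36.2, 31.4 and 57.7 and 81.5, 102, 94.9 and 132, and Tceal6 44.6, 41.5, 20.1, 77.1 and 51.6 and 128, 109.6, 132 and 131. For each of the 3 every older mouse was above every younger one. The log2 fold changes were 0.84 ± 0.14 (adjusted p = 0.00753), 1.103 ± 0.19 (adjusted p = 0.00768) and 1.36 ± 0.24 (adjusted p = 0.0130), all from edgeR. Raw counts of Tceal6 went down to 5 in the shallowest library. The 3 lie within a region of chromosome X that holds the Armcx, Bex and Tceal families, of which 17 genes were tested. The other 14, a group looked at after values were seen, were not DEGs and ran from -0.49 to 0.52 with a median of -0.03. Gprasp1 shares its annotated start with Armcx5 and overlaps Bhlhb9 on the same strand, which were at 0.28 and 0.10.

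Tafa1, a secreted protein related to chemokines, and Prune2 were of low abundance. Tafa1 had 13.6, 14.2, 12.1, 20.0 and 12.6 normalized counts at 6 weeks and 20.4, 38.2, 43.6 and 65.7 at 22 weeks, where sample 012 lay next to sample 019. Its log2 fold change was 1.62 ± 0.30 (edgeR, adjusted p = 0.0136). Prune2 had 14.3, 14.2, 28.1, 25.7 and 24.8 and 42.7, 43.8, 48.7 and 38.4 (1.16 ± 0.23, adjusted p = 0.0267). Ibsp encodes integrin-binding sialoprotein, a protein of mineralized tissue. It had 22.7, 33.8, 12.1, 20.0 and 30.5 normalized counts at 6 weeks and 96.1, 47.0, 66.7 and 61.9 at 22 weeks, with no overlap, and a log2 fold change of 1.29 ± 0.25 (adjusted p = 0.0225). It was the DEG of 14 tested members of the vascular calcification list, beside 0.0971% of all tested genes called higher. The list median was -0.02, and 4 members had an unadjusted p under 0.05 and a value below 0, beside 4.51% of all genes. Mgp, the matrix Gla protein that inhibits mineral growth in arteries, was at -0.53 ± 0.15 (adjusted p = 0.201).

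Smaller increases were those of Enpp5, a membrane ectonucleotidase-like protein (159.8 to 197 normalized counts at 6 weeks and 244 to 263 at 22 weeks, 0.59 ± 0.12, adjusted p = 0.0267), and Vit, vitrin, an extracellular matrix protein (82.8 to 104 and 132 to 184, 0.77 ± 0.17, adjusted p = 0.0498). Tub, the tubby protein of ciliary trafficking, had 150.3, 139.7, 177, 171 and 196 normalized counts at 6 weeks and 263, 345, 221 and 260.2 at 22 weeks (0.75 ± 0.15, adjusted p = 0.0251). Fam174b was at 56.2 to 97.0 and 105 to 147 (0.72 ± 0.12, adjusted p = 0.00753). Foxf1, a forkhead transcription factor of mesenchyme, was at 45.7 to 71.5 and 83.4 to 104 (0.70 ± 0.15, adjusted p = 0.0498), the last just inside the threshold. In none of these 5 did the ages overlap.

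The contractile apparatus gave no DEG among 35 tested genes, with a median of -0.05 and 22 of 35 below 0. The median was -0.11 without sample 001 and -0.02 without sample 009, and 1 DEG was called without 011 and 019. Myh11, the smooth muscle myosin heavy chain, was at 41504 to 52876 normalized counts at 6 weeks and 47528 to 59986 at 22 weeks (0.19 ± 0.16). Acta2, smooth muscle actin, was at -0.27 ± 0.12 (adjusted p = 0.508). The smallest p of the list belonged to Hspb6, a small heat-shock protein of smooth muscle, at -0.48 ± 0.12 (adjusted p = 0.105). Npr1, the receptor of atrial natriuretic peptide, belongs to the nitric oxide and cGMP list (17 tested, no DEG) and was at 1779.8 to 2183 at 6 weeks and 2416 to 3089 at 22 weeks without overlap (0.44 ± 0.10, adjusted p = 0.0726).

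The cell cycle list gave no DEG among 28 tested members (median -0.10, or -0.06 without sample 025). Its smallest unadjusted p-values belonged to Ccnd1, cyclin D1, at 0.57 ± 0.22 (adjusted p = 0.426), and Smc4, a condensin subunit, at -0.29 ± 0.12 (adjusted p = 0.494). Markers of dividing cells (8 genes) summed to between 7.04 and 13.5 CPM at 6 weeks and between 6.92 and 17.8 at 22 weeks. Igf1, the growth factor of the somatic growth axis, had 304, 259, 386, 331 and 419 normalized counts at 6 weeks and 149, 244, 180.3 and 129.9 at 22 weeks. All older mice were below all younger ones, yet its log2 fold change of -0.91 ± 0.19 had an adjusted p of 0.0568. The binding proteins Igfbp4 and Igfbp2 were at 0.36 ± 0.12 (adjusted p = 0.323) and 0.71 ± 0.30 (adjusted p = 0.508). Among 17 imprinted growth genes there was no DEG, 9 were above and 8 below 0. The maternally expressed Rian and Meg3, which share 1 imprinted cluster, were at -0.49 ± 0.12 (adjusted p = 0.105) and -0.39 ± 0.13 (adjusted p = 0.323), and Nnat at 1.17 ± 0.39 (adjusted p = 0.306).

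Signalling lists gave no DEG. For Notch, 13 of 14 tested members were above 0 (median 0.26, which was 0.15 without sample 019), with Dll1, a ligand, at 0.75 ± 0.26, its target Hes1 at 0.71 ± 0.26 and the feedback inhibitor Nrarp at 0.82 ± 0.31 (adjusted p between 0.347 and 0.407). For TGF-β and BMP 19 of 37 members were above 0, and the smallest p-values were those of Inhbb at 0.87 ± 0.25 (adjusted p = 0.194), Chrdl1 at 0.88 ± 0.27 (adjusted p = 0.226) and Grem1 at 1.25 ± 0.41 (adjusted p = 0.274). Spp1, osteopontin, had 47.6, 5.46, 16.1, 14.3 and 26.0 normalized counts at 6 weeks and 3.88, 6.91, 6.84 and 2.28 at 22 weeks, with raw counts of 4 to 64. Its log2 fold change of -2.40 ± 0.57 did not pass (adjusted p = 0.0963).

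**Figure D3:**
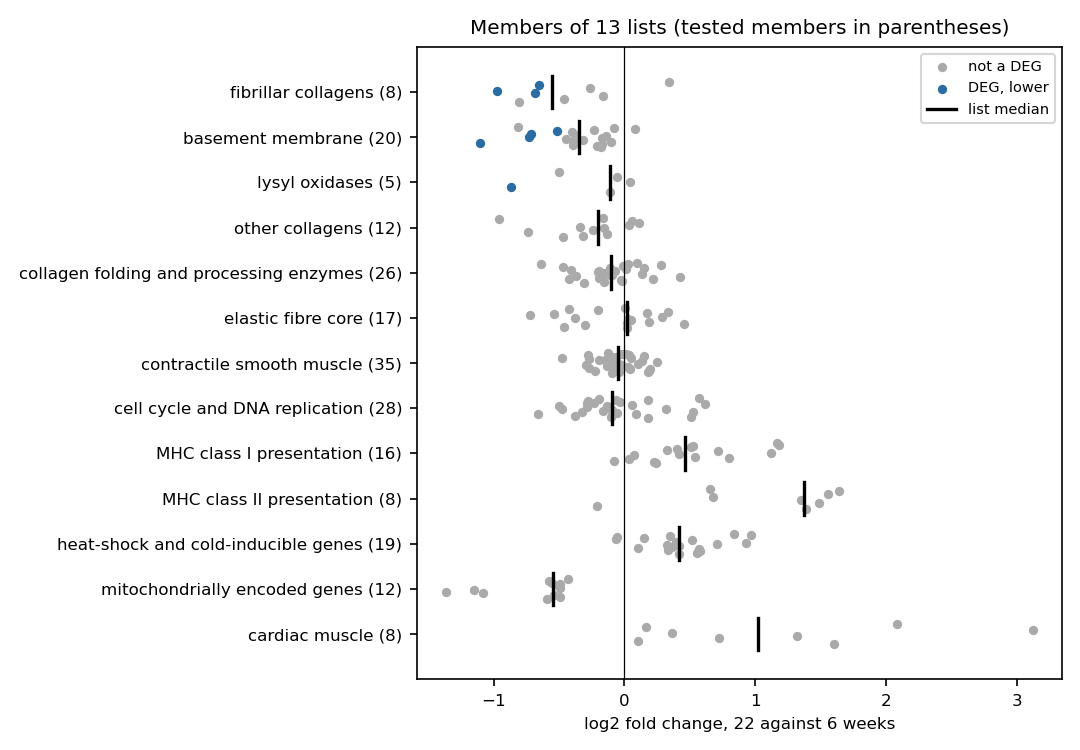
Points are the tested members of 13 lists by their log2 fold change from 6 to 22 weeks (x axis), blue where the gene was a DEG, and black bars are list medians. The medians of the fibrillar collagen and basement membrane lists are -0.56 and -0.35, those of MHC class II and cardiac muscle 1.37 and 1.02, and that of the contractile list -0.05.

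None of 8 MHC class II genes tested was a DEG, but 7 had an unadjusted p under 0.05 and a value above 0, beside 4.14% of all genes, and the median was 1.37. H2-Eb1, a class II β chain, had 27.9, 20.7, 28.1, 5.71 and 25.2 normalized counts at 6 weeks and 48.5, 121, 40.2 and 52.4 at 22 weeks (1.56 ± 0.36, adjusted p = 0.0900). H2-Aa, an α chain, had 49.8, 65.5, 137, 48.5 and 47.2 and 106.7, 332, 125 and 117 (1.49 ± 0.40, adjusted p = 0.193). In both, sample 018, the female of 22 weeks, was far above the other 3 of its age. H2-DMa, which loads peptide on class II, was at 1.35 ± 0.38 (adjusted p = 0.174). Without sample 018 the list median was 0.82.

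Of 16 MHC class I genes none was a DEG, and the median was 0.46 (0.25 without sample 018). An unadjusted p under 0.05 with a value above 0 was found for 11, beside 4.14% of all genes. H2-D1, a classical class I heavy chain, was at 1767 to 2263 at 6 weeks and 2365 to 3350.3 at 22 weeks, without overlap (0.52 ± 0.12, adjusted p = 0.0726). H2-Q4 and Tap2, a peptide transporter, were at 1.12 ± 0.26 (adjusted p = 0.0900) and 0.54 ± 0.14 (adjusted p = 0.137). Class I and II genes are highly alike and differ between the parental strains. This can affect which reads were counted at both ages, since all the mice were F1 hybrids of these strains. For the type I interferon response, 24 of 27 tested genes were above 0 with no DEG and a median of 0.35, which was -0.05 without sample 018. Macrophage markers (16 genes) summed to 287.7 to 354.5 CPM at 6 weeks and 384.5 to 520 at 22 weeks, 14 of 14 tested members were above 0, and none was a DEG (Mpeg1 at 0.69 ± 0.24, adjusted p = 0.323). T cell markers (19 genes) summed to 0 to 37.2 CPM at 6 weeks and 3.59 to 5.1 at 22 weeks and had no tested member. B and plasma cell markers (12 genes) summed to 4.69 to 22.9 CPM at 6 weeks and 6.66 to 14.4 at 22 weeks. The part of these immune cells in the MHC values was not tested.

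The list of heat-shock and cold-inducible genes gave no DEG among 19 tested members. Values were above 0 for 17 of them, with a median of 0.41, and 12 had an unadjusted p under 0.05 and a value above 0, beside 4.14% of all genes. Hsp90aa1, the inducible HSP90, had 1849, 1636, 2169.5, 1872 and 2107 normalized counts at 6 weeks and 2803, 2283, 2517 and 3528 at 22 weeks (0.57 ± 0.14, adjusted p = 0.0873). Hsph1, a nucleotide exchange factor of HSP70, was at 0.93 ± 0.21 (adjusted p = 0.0900) and Hsp90ab1 at 0.36 ± 0.09 (adjusted p = 0.0963). None of the 3 had overlapping ages, and they were the only 3 of the 19 members without overlap, beside 1.74% of all tested genes. Immediate early genes, which respond within minutes to handling, gave 7 of 24 tested members with an unadjusted p under 0.05 and a value below 0, beside 4.51% of all genes, and a median of -0.09 (-0.41 without sample 020 and -0.02 without sample 012). Egr1, a transcription factor of this list, was at -1.26 ± 0.34 (adjusted p = 0.193). Sgk1, a kinase gene that glucocorticoids induce, was at -0.69 ± 0.20 (adjusted p = 0.216). Neither list had a DEG.

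Transcripts of the mitochondrial genome were below 0 in 12 of 12 tested genes, with a median of -0.55 and no DEG. mt-Co1, a subunit of cytochrome c oxidase, had 61226, 41055, 70517, 56695 and 35428 normalized counts at 6 weeks and 46767, 29374, 39529.5 and 31788 at 22 weeks, so that the ages overlapped (-0.54 ± 0.19, adjusted p = 0.378). mt-Nd5, of complex I, was at -0.49 ± 0.17 (adjusted p = 0.345). The highest mt-Co1 value was in library 011, which was also the shallowest, and the median of the list was -0.32 without 011 and 019 and 0.06 with sample 003 added. Nuclear genes of oxidative phosphorylation were below 0 in 41 of 46, with a median of -0.16 and no DEG. That median was -0.07 without sample 011, -0.08 without 011 and 019 (36 of 46 below 0) and 0.02 with sample 003 added.

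Transcripts of neighbouring tissues were also read. Cardiac markers (16 genes) summed to 83.3 to 138.7 CPM at 6 weeks and 155.2 to 306.9 at 22 weeks, so that the sums of the 2 ages did not overlap. The 8 tested were above 0 without a DEG. Of them, 4 were higher without overlap between the ages, beside 1.74% of all tested genes. Myh6, the α-myosin heavy chain of the heart, had 63.4, 4.36, 0, 0 and 39.4 normalized counts at 6 weeks and 436, 131, 179 and 115 at 22 weeks (3.12 ± 1.09, adjusted p = 0.392), with 2 libraries at 0. Their part in the fall of Myoz2, a gene of striated muscle, was not tested. Mbp, myelin basic protein, a gene of the Schwann cells that wrap nerve fibers, stood out in sample 001, with 1100.3 normalized counts against at most 61.5 in any other. Its log2 fold change of -2.77 ± 0.96 (adjusted p = 0.385) rests on that sample. Brown fat markers (11 genes) summed to 319.4 to 781.7 CPM at 6 weeks and 186.9 to 349.1 at 22 weeks. Of them, 9 of 10 tested were below 0 without a DEG (median -0.38, or -0.19 without sample 011). White fat markers (13 genes) summed to 1632 to 2051 and 1552 to 1841 CPM. The part of fat in the values of mitochondrial genes was not tested.

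The 29 DEGs were set beside the change from 6 to 22 weeks in Ercc1Δ/− mice, a comparison with its own samples of both ages. In these mice 576 of 12353 genes (4.66%) were DEGs, and 17 of the 29 were among them. Genes that fell in WT mice were also DEGs that fell in Ercc1Δ/− mice in 12 of 17 cases, and genes that rose were DEGs that rose in 4 of 12 and a DEG that fell in 1 (Tub). The change differed between the genotypes in 104 genes (0.842%; interaction term, edgeR, adjusted p at most 0.05), of which 8 were among the 29. The interaction term contains the same WT change by which the 29 were picked. Their larger share is therefore partly built in and is not read as a result. Without WT sample 018 there were 55 such genes, and without sample 004, an Ercc1Δ/− library of 22 weeks, 63.

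For 3 of these 8 the fall was larger in Ercc1Δ/− mice. Col3a1 was at -2.25 ± 0.18 there against -0.97 ± 0.17 in WT mice (interaction adjusted p = 0.0109), Col4a5 at -1.41 ± 0.10 against -0.71 ± 0.09 (0.0100) and Col1a2 at -1.53 ± 0.13 against -0.65 ± 0.13 (0.0167). Sparc was at -1.67 ± 0.12 in Ercc1Δ/− mice, and its interaction had an adjusted p of 0.137. In the other 5 the value in Ercc1Δ/− mice had the opposite sign to that in WT mice. Gprasp1 was at -0.15 ± 0.15 in Ercc1Δ/− mice (interaction adjusted p = 0.0156), Gprasp2 at -0.22 ± 0.23 (0.0340), Pdp2 at 0.13 ± 0.13 (0.0260), Adm at 0.59 ± 0.17 (0.00487) and Tub at -0.73 ± 0.17 (0.00171). Tub in WT mice was thus higher with age and in Ercc1Δ/− mice lower. The change in Ercc1Δ/− mice made only Tub of the 5 a DEG. There Gprasp1, Gprasp2, Pdp2 and Adm had adjusted p-values of 0.669, 0.700, 0.685 and 0.0519 (edgeR). At 6 weeks Pdp2 averaged 207 normalized counts in WT and 111 in Ercc1Δ/− mice, and Adm 150 and 86.3.

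The 5 interaction genes with the smallest p were not DEGs of WT mice. Lgals3, galectin-3, was at -0.71 ± 0.18 in WT and 1.603 ± 0.18 in Ercc1Δ/− mice (interaction adjusted p = 7.09e-05), Cp, ceruloplasmin, at -0.10 ± 0.12 and 1.36 ± 0.12 (7.09e-05), Htra4 at -0.10 ± 0.15 and 1.59 ± 0.14 (1.32e-04), Spp1 at -2.40 ± 0.57 and 4.05 ± 0.43 (3.37e-04) and Sh3bgr at -0.24 ± 0.09 and -1.21 ± 0.10 (7.65e-04). Loxl2, Fbn1 and Col6a1 had lower values in Ercc1Δ/− mice, at -1.44 ± 0.12, -1.18 ± 0.12 and -1.33 ± 0.13, with interaction adjusted p-values of 0.00644, 0.0191 and 0.0167.

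WT mice of 22 weeks on DR were set against the same 5 mice of 6 weeks, so the 2 comparisons share these samples and only values are given. Sparc was at -1.43 ± 0.11 on DR, Col3a1 at -1.66 ± 0.18, Col4a5 at -0.93 ± 0.09, Col1a2 at -1.02 ± 0.12 and Lox at -0.60 ± 0.15. Gbp8 was at 0.83 ± 0.23, Gprasp1 at 0.40 ± 0.15, Gprasp2 at 0.04 ± 0.24, Tub at 0.16 ± 0.16 and Ibsp at 1.65 ± 0.32. The medians of the MHC class II list were 1.37 in AL-fed WT mice, -0.77 on DR and 0.73 in Ercc1Δ/− mice. Those of the fibrillar collagens were -0.56, -0.72 and -0.98, and those of the basement membrane list -0.35, -0.41 and -0.60.

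**Figure D4:**
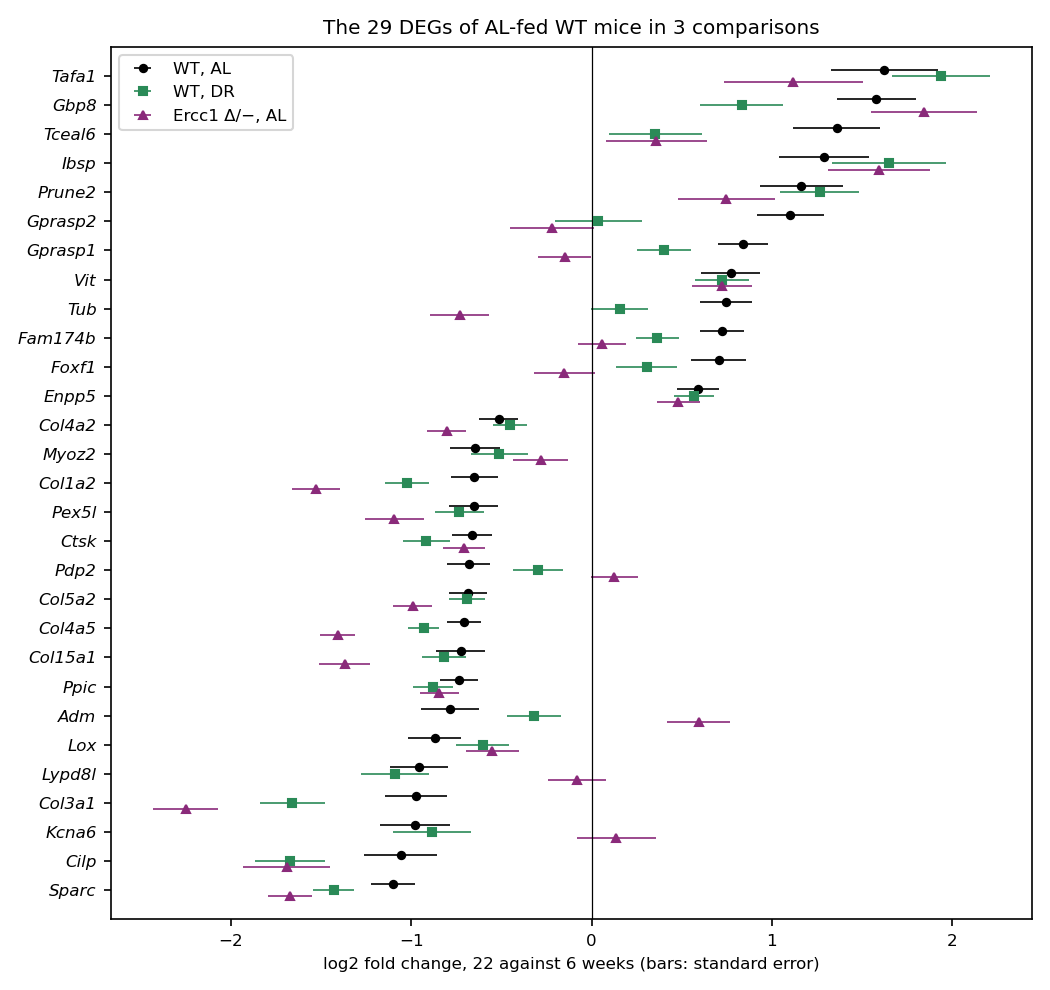
Log2 fold changes from 6 to 22 weeks (x axis) of the 29 DEGs of AL-fed WT mice are drawn with their standard errors for AL-fed WT mice (black circles), WT mice on DR (green squares, which share the 6-week mice) and AL-fed Ercc1Δ/− mice (purple triangles). Col3a1 is at -0.97 in AL-fed WT mice and -2.25 in Ercc1Δ/− mice, and Tub at 0.75 and -0.73.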

How the data were processed

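RNA of the aortic arch of 29 mice was sequenced by the study, and 9 samples are described here. Per the labels and the study's methods, the authors trimmed reads with fastp, aligned them with STAR 2.7.10a to mm39, removed duplicates by unique molecular identifiers with UMI-tools 1.1.2 and counted them per gene with htseq 2.0.2. The deposited whole-number counts were used as such: 56748 genes, with 5 lines of unassigned reads kept out (12.6% to 17.0% of the table's reads in the 9 samples). Symbols and GRCm39 positions came from a later GENCODE release (56017 genes matched). Duplicate removal means that a count is close to a molecule.

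A gene was tested if its count exceeded 10 in over 10 of the 28 samples, by edgeR 4.0.16 in R 4.3.3 (TMM, robust quasi-likelihood F test) over the 18 AL-fed samples of both genotypes, with group and sex in the model. Values of WT mice on DR came from a fit of all 28 samples. Fold changes are given on the log2 scale ± SE, which is the log2 fold change divided by the square root of F, and adjusted p-values are edgeR's after Benjamini-Hochberg. To give normalized counts, each count was divided by its library total times the TMM factor and multiplied by 3683502. Single values were compared by exact permutation tests in Python 3.11.15. Pairs of libraries of 1 age differed by 3.06 to 15.7 times the counting noise (chi-square per degree of freedom), so all 9 were kept as separate samples.

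The comparison and the 65 gene lists were chosen with earlier results of these data known. Text genes are all DEGs, the called or up to 3 lowest-p members of a list, core matrix, contractile and growth genes, and the 5 interaction genes with the smallest p. A gene that this rule names is not reported here. Col4a1, the Gbp family and the X-linked families were chosen after their values were seen. The alternatives were DESeq2 1.42.0, RLE size factors, other filters, sample 003 added, no sex term, other samples in the fit, males only, an earlier dispersion method, a test against 1.2-fold, thinning to 955589 counts and each sample left out. The procedure was tested on simulated data. The labels name no pooling of animals. The edgeR p-values weigh a change against a spread estimated over the 18 AL-fed samples of both genotypes. The permutation tests use only the WT samples of both ages.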

Additional observations from a re-analysis of the deposited data

Results flagged for a closer look

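A sample stood apart from its group in 13 of 176 tests of a named gene or library measure in the 5 mice of 6 weeks or the 4 of 22 weeks, where chance gives about 1 in 20. At 6 weeks, sample 001 was highest in Mbp (1100.3 normalized counts, next 52.2). Sample 019 was highest in Tafa1 (20.0, next 14.2) and Cp (225, next 193) and lowest in H2-DMa (0, next 8.73). Sample 009 was highest in Gbp8 (76.4, next 36.2), and sample 011 in H2-Aa (137, next 65.5). At 22 weeks, sample 018 was highest in H2-Eb1 (121, next 52.4) and H2-Aa (332, next 125) and lowest in Tceal6 (109.6, next 128). Sample 025 was highest in Myoz2 (122, next 119) and lowest in Pcolce2 (488, next 619). Sample 020 was highest in Pdp2 (133, next 123) and sample 012 in Chrdl1 (132, next 86.3).

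The change with age differed between the genotypes in 19 of the genes named (interaction term, edgeR, adjusted p at most 0.05). Among all 12353 tested genes it did so in 104 (0.842%). Lgals3, Cp, Htra4, Spp1 and Sh3bgr were named for their small interaction p. Others were named as DEGs of WT mice, whose change is part of this term. The count of 19 thus partly reflects how genes were picked and is not read as a result. As the log2 change in Ercc1Δ/− minus that in WT mice, matrix genes were at -1.28 for Col3a1, -0.88 for Col1a2, -0.70 for Col4a5, -0.86 for Col6a1, -0.94 for Loxl2, -0.81 for Fbn1 and 0.70 for Ltbp2. Further genes were at -0.99 for Gprasp1, -1.32 for Gprasp2, -1.48 for Tub, -3.44 for Nnat, 0.81 for Pdp2, 1.38 for Adm and 1.21 for Mgp. The others were Spp1 at 6.45, Lgals3 at 2.32, Cp at 1.47, Htra4 at 1.69 and Sh3bgr at -0.96. The cause of these differences was not tested.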

How the results depend on the processing

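No gene that was a DEG changed direction in any of the 31 alternative fits: of 892 values, 657 kept their call and 235 lost it. The 17 DEGs that fell and 12 that rose became 62 and 44 with DESeq2 (all 29 among them), 30 and 40 with no filter on low counts, 10 and 7 without the sex term, 9 and 0 in males only (edgeR, with 910 genes at an unadjusted p under 0.05), and 2 and 1 in the test against a 1.2-fold change. With more than 10 counts in each of the 9 samples 7 rose, and thinned to the lowest total 6 rose. A fit of only the 9 WT samples gave 21 that fell and 17 that rose, with 25 of these 38 among the 29. Leaving out samples singly gave 5 to 34 that fell and 3 to 22 that rose. The 104 interaction genes became 197 with DESeq2, 4 in males only, 59 when thinned, and 55 to 134 with samples left out singly (55 without WT sample 018, 63 without Ercc1Δ/− sample 004). With sample 003 added, the mitochondrial share was 0.25 percentage points higher at 22 weeks than at 6 weeks instead of 1.23 lower, mt-Co1 was at 0.0395 and Htra4 at 0.0205. Of 1725 values of named genes that were not DEGs, 70 became calls and these 2 reversed. The cause of these shifts was not tested. No paired analysis was possible because each mouse gave 1 sample and the groups share no replicate numbers. Groups of 4 and 5 and libraries down to 955589 counts limit what could be called among genes of low count.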
